A study of Homo sapiens with 6 samples.

Results

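A set of 36 genes that centre on activating transcription factor 4 (ATF4) was followed in 2 respiratory epithelial cell lines under transforming growth factor beta 1 (TGF-β1). The set was fixed by name and comprised 8 stress factors including ATF4 itself, 12 enzymes of serine, glycine, one-carbon, proline and asparagine synthesis, 5 amino acid transporters, and 10 cytosolic tRNA synthetases with the tRNA exporter XPOT. All 36 were found once each among the 25737 entries of the count tables. A549 is a human lung adenocarcinoma line, and BEAS-2B is a line derived from human bronchial epithelium. Both carry the label wild type and were kept in RPMI medium with 10% fetal bovine serum (FBS). Treated cells received 1 or 5 ng/mL TGF-β1 in medium with 1% FBS, 24 h after seeding and for 48 h. The labels give no treatment for the control of each line and do not say which serum level it had, so TGF-β1 and a change of serum cannot be told apart if the controls stayed at the higher level. RNA of each condition was sequenced from its 3′ ends in 1 library, which makes 6 libraries. The spread between cultures of 1 condition is therefore unknown, and every interval given covers counting error only. A test was run only with both doses of a line as 1 treated group.

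ATF4 is a transcription factor of the integrated stress response. Its mRNA is translated preferentially when the initiation factor eIF2 is phosphorylated, and signalling through mTORC1 can raise it as well. ATF4 binds composite C/EBP-ATF elements together with C/EBP partners and switches on genes that make, import and charge amino acids onto tRNA. In fibroblasts, TGF-β1 is known to act through ATF4 on serine and glycine synthesis, and glycine and proline are the most frequent residues of collagen.

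The element was looked for in the promoters of the members, because it is the sequence through which ATF4 is known to reach these genes. The search used TGATGNAA, where N is any base, on both strands of the 300 bases from 250 before to 50 after each transcription start, with RefSeq promoters of build GRCh38.p14. PYCR1, ALDH1L2, PSPH, SHMT2 and YARS had no entry. Of the other 31 members, 13 (41.9%) held a match in any of their promoters. By the same rule, 4.46% of all 27305 genes with a promoter entry held one. So did 2.42% of the 4919 genes matched by symbol whose mean ND value reached 7 (the ND value is the log2 normalized count after adding 1). Matches were found in 4 of 5 transporters, 6 of 10 synthetases and exporter genes, 2 of 8 enzymes and 1 of 8 stress factors. The stretches around the match are shown for 5 members that come up in the results below, on the strand of the gene, with the match in capitals (TTNCATCA where it lies on the other strand) and cut at the transcription start. They lie at chr7:97872429-97872516 (minus strand) for ASNS, chr15:40953222-40953309 (plus strand) for CHAC1, chr19:46784864-46784951 (minus strand) for SLC1A5, chr7:30594805-30594877 (plus strand) for GARS (GARS1 in RefSeq) and chr9:92293698-92293750 (minus strand) for IARS (IARS1 in RefSeq).
ASNS: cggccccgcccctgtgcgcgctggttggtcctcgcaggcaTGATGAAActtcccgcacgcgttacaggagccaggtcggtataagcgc
CHAC1: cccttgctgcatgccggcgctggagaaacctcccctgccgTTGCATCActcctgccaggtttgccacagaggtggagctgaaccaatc
SLC1A5: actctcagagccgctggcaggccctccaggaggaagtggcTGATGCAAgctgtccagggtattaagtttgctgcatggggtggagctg
GARS: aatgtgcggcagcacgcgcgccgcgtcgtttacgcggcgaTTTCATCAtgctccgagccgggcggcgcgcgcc
IARS: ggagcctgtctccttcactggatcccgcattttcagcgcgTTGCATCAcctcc
The match began 68 bases before the start in ASNS and 13 bases before it in IARS. These are matches of letters. No binding was measured, and the absence of these letters from a window says nothing about ATF4 at that gene.

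Total counts ran from 4120624 to 7841350 per library, with the highest in A549 cells at 1 ng/mL. Keratin genes KRT7, KRT8 and KRT18 had between 175 and 20603 counts in every library, and of the other epithelial markers CDH1 had at most 2 counts and EPCAM 0 in BEAS-2B cells. In A549 cells, CDH1 had 640, 30 and 8 counts over the rising doses. The airway basal marker KRT5 had at most 1 count, and KRT14 and TP63 had 0 in BEAS-2B cells. Summed counts stayed at or below 4 for 3 endothelial markers, and of 3 immune markers, PTPRC reached 4, CD3E had 0, and CD68 had 51 to 73 counts in A549 and 24, 14 and 4 in BEAS-2B cells. Of 3 fibroblast markers, DCN reached 53 counts in A549 cells at 1 ng/mL. Of the TGF-β1 response genes, the matrix gene COL1A1 had 87, 3316 and 2252 counts over the rising doses in the A549 line, with 2398, 27154 and 24485 in BEAS-2B cells.

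ATF4 mRNA about doubled in both lines at 1 ng/mL and went no higher at 5 ng/mL. It had 1758, 3520.4 and 3255 normalized counts at 0, 1 and 5 ng/mL in the A549 line, and 1643, 3588 and 3505 in BEAS-2B cells. The lines started at like levels and stayed close at each dose. The ratio to the control was 2.003 (1.89 to 2.12) at 1 ng/mL and 1.85 (1.74 to 1.97) at 5 ng/mL in A549 cells, where the values in brackets are the exact 95% counting interval. In BEAS-2B cells it was 2.18 (2.05 to 2.32) and 2.13 (2.002 to 2.27).

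A gene was counted as higher or lower, and is said to have risen or fallen, when its fold change (FC) was at least 2 and one or both of the libraries compared reached an ND value of 7, that is 127 normalized counts. The FC, unlike the ratios, carries a pseudocount of 1. ATF4 met both criteria in A549 cells at 1 ng/mL and in BEAS-2B cells at both doses, but not in A549 cells at 5 ng/mL. The A549 call at 1 ng/mL was at the limit. Its log2 FC was 1.00 and ranged from 0.84 to 1.00 over the other scalings and pseudocounts, and the call ended under DESeq2 size factors, total counts, upper quartile factors, TMM within the line, a filter on low counts, and removal of the trend over transcript GC content. The BEAS-2B call at 5 ng/mL ended under total counts, with a log2 FC of 0.96.

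The members did not follow ATF4 as a block, and the lines parted. In A549 cells at 5 ng/mL, 2 of the 36 rose and 8 fell (31 reached the ND minimum), while 16.1% of all entries that reached it rose and 17.1% fell. In BEAS-2B cells at 5 ng/mL, 9 rose and 0 fell (28 reached the minimum), against 7.33% and 11.6% of all entries. At 1 ng/mL, 1 rose and 7 fell in A549 cells (31 reached the minimum, background 10.9% and 12.6%). In BEAS-2B cells at 1 ng/mL, 5 rose and 1 fell (28 reached the minimum, background 5.66% and 9.13%). Among members that reached the minimum at 5 ng/mL, the share that rose was 32.1% in BEAS-2B cells, above the background, and 6.45% in A549 cells, below it, and the share that fell in A549 cells was 25.8%. Both doses of a line share its control library. Scaling by total counts, which lowered every log2 FC by between 0.13 and 0.21, gave 0 higher and 8 lower in A549 and 3 higher and 2 lower in BEAS-2B cells at 5 ng/mL. At 1 ng/mL it gave 0 and 7 in A549 and 5 and 2 in BEAS-2B cells, and DESeq2 size factors gave 0 and 7, and 6 and 0.

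The medians moved in opposite directions in the lines. The median log2 FC of the 36 members was −0.39 in A549 and 0.32 in BEAS-2B cells at 5 ng/mL, where the 6304 entries whose mean ND value reached 7 had medians of 0.18 and 0.04. At 1 ng/mL the members' medians were −0.21 and 0.22, beside 0.15 and 0.03 for those entries. Here and below, the medians of the members take all 36, of which 29 pass that ND limit. Over the 4 comparisons with a control, 9 members rose at least once, 10 fell at least once, 17 did neither and 0 did both. No such count was made over all entries, so these counts have no background to be read against.

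With the 1 and 5 ng/mL libraries of a line taken as a pair of treated libraries, edgeR's quasi-likelihood test across 14088 entries found 2 members higher and 8 lower in treated A549 cells at an adjusted p under 0.05, against 9.65% and 10.5% of the entries. In BEAS-2B cells it found 6 higher and 1 lower, against 3.51% and 5.94%. The 2 higher in A549 cells were ATF4, with a log2 FC of 0.94 ± 0.28 (SE) and adjusted p = 0.0223, and SLC7A5, with 0.87 ± 0.29 (SE) and 0.0438. The 8 lower were PSAT1, IARS, ALDH18A1, CEBPB, SHMT1, TRIB3, MTHFD2 and MARS, with adjusted p from 0.000367 for IARS to 0.0375 for MARS. In BEAS-2B cells the 6 higher were ASNS, PYCR1, ATF4, GARS, PHGDH and SESN2, with adjusted p from 0.00312 for ASNS to 0.0461 for SESN2, and ALDH18A1 was lower, at 0.0399. In every one of these, both treated libraries of the line lay on the same side of its control. The members were picked by this test and each line has 1 control, so this agreement adds no evidence. Members that met the FC criteria but missed the test were SESN2, SLC1A5 and PYCR1 in A549 cells (adjusted p = 0.0513, 0.0561 and 0.097) and YARS, TARS, SLC7A5 and SLC1A4 in BEAS-2B cells (0.0568, 0.082, 0.0991 and 0.179). These counts also moved with single libraries, and the shares over all entries moved the same way. Without either BEAS-2B dose, 0 members were higher in A549 cells, and without A549 cells at 1 ng/mL, 6 were. In BEAS-2B cells, 2 were higher and 0 lower without its 1 ng/mL library, 1 and 0 without its 5 ng/mL library, and 12 were higher without either A549 dose.

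The same fit tested whether the treated-against-control difference was unlike in the lines. It was lower in A549 than in BEAS-2B cells for 3 members and higher for 0, against 0.937% and 1.09% of the entries. They were IARS, with a difference in log2 FC of −2.15 ± 0.45 (SE) and adjusted p = 0.0156, CEBPB, with −2.34 ± 0.51 (SE) and 0.0198, and ASNS, with −2.09 ± 0.48 (SE) and 0.0261. PSAT1 missed the limit, at −1.93 ± 0.51 (SE) and 0.058, as did CHAC1, at −3.08 ± 0.88 (SE) and 0.0811. At an unadjusted p under 0.05 in edgeR's test, the counts were 11 lower and 0 higher. At that limit, 2035 of the 14088 entries passed, both directions together. At an adjusted p under 0.05, DESeq2 gave 3 members lower and 0 higher. The count of 3 rested on single libraries. It went up without either A549 dose and down without either BEAS-2B dose, and the share of all entries moved the same way. In a fit with 1 treatment term for both lines, 5 members were higher (ATF4, PYCR1, SESN2, SLC7A5 and SARS) and 3 lower (ALDH18A1, SHMT1 and MTHFD2), against 6.16% and 9.31% of 13157 entries. The log2 FC there was 1.03 ± 0.21 (SE) for ATF4 (adjusted p = 0.00965) and −2.18 ± 0.42 (SE) for ALDH18A1 (0.00764). Without A549 cells at 5 ng/mL, or without BEAS-2B cells at that dose, 1 was higher and 1 lower. The shares over all entries were then 3.2% and 5.29%, and 2.57% and 5.37%. These tests take the 1 and 5 ng/mL libraries as alike, so a difference between the doses counts as spread. In the tests within lines and of their difference, the 1 control library of each line adds no spread to the p-values. An odd control cannot be told apart from an effect of treatment there.

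**Figure D1:**
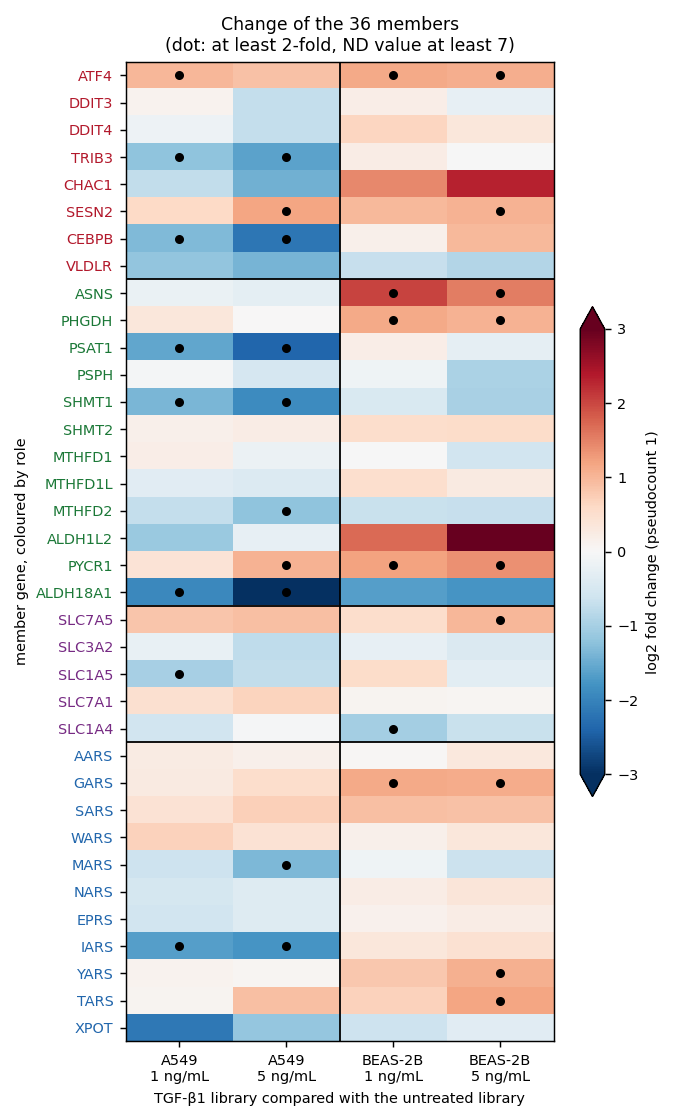
Log2 fold change (colour, pseudocount 1) of the 36 members (vertical axis, coloured by role) in the 4 comparisons of a TGF-β1 library with the control of its line (horizontal axis), with a dot where the FC was at least 2 and the ND value at least 7. In A549 cells at 5 ng/mL the dots mark 2 rises and 8 falls, and in BEAS-2B cells at 5 ng/mL they mark 9 rises and 0 falls.

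Among the stress factors, SESN2 rose in both lines, whereas TRIB3 and CEBPB fell in A549 cells. SESN2 encodes sestrin 2, an inhibitor of mTORC1 that senses leucine. Its normalized counts were 175, 263 and 401 in A549 and 271, 537 and 555 in BEAS-2B cells at 0, 1 and 5 ng/mL. Both treated libraries of each line were above their control. The ratio at 5 ng/mL was 2.29 (1.90 to 2.78) in A549 and 2.05 (1.75 to 2.41) in BEAS-2B cells, and 1.98 at 1 ng/mL in the latter, just under the limit. Both calls ended under total-count scaling, with log2 FC of 0.99 and 0.90, and when the trend over GC content was removed, with 0.79 and 0.97.

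TRIB3 encodes a pseudokinase that is a target of ATF4 and acts back on it. It had 397, 172 and 131 normalized counts in A549 cells, and 95.9, 113 and 95.7 in BEAS-2B cells. It fell in A549 cells to 0.329 (0.269 to 0.401) of the control at 5 ng/mL, and the BEAS-2B ratio was 0.998 (0.723 to 1.37), an interval on both sides of 1. CEBPB encodes C/EBPβ, a partner that ATF4 can pair with on DNA. Its normalized counts were 1033, 412 and 228 in A549 and 312, 349 and 616 in BEAS-2B cells. The order of the lines turned over, since A549 cells were the higher at 0 ng/mL and BEAS-2B cells the higher at 5 ng/mL. The ratio at 5 ng/mL was 0.220 (0.191 to 0.254) in A549 cells, a fall, and 1.97 (1.70 to 2.29) in BEAS-2B cells, just short of the FC limit. Removal of the GC trend took the A549 log2 FC from −2.18 to −2.82, and upper quartile factors took that of BEAS-2B cells from 0.98 to 1.04, past the limit.

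The other 4 stress factors met the criteria in no comparison with a control. CHAC1, a glutathione-degrading enzyme gene induced by ATF4 whose promoter stretch is shown above, was too low to reach the minimum. Its counts before scaling were 42, 42 and 19 in A549 and 14, 39 and 65 in BEAS-2B cells. The ratios at 5 ng/mL lay on opposite sides of 1, at 0.354 (0.195 to 0.623) and 5.24 (2.91 to 10.1). DDIT4, an mTORC1 inhibitor gene, had ratios of 0.606 and 1.26, and removal of the GC trend took its A549 log2 FC from −0.72 to −1.36. DDIT3, which encodes the stress factor CHOP, had 0.613 and 0.840, and VLDLR, a lipoprotein receptor gene, had 0.374 and 0.527. DDIT3 and MARS lie on opposite strands and share 982 bases at their 3′ ends in GENCODE v29 (GRCh38). Since the strand setting of the counting is not given in the sources used here, reads of the shared bases may have been counted for the wrong gene or for both.

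Serine synthesis runs from 3-phosphoglycerate through PHGDH, PSAT1 and PSPH, in that order. Its 3 genes did not move together. PHGDH rose in BEAS-2B cells, PSAT1 fell in A549 cells, and PSPH met the criteria in neither line. PHGDH had 228, 289.9 and 230.4 normalized counts in A549 and 156, 347 and 324 in BEAS-2B cells at 0, 1 and 5 ng/mL. The ratio at 5 ng/mL was 2.07 (1.68 to 2.57) in BEAS-2B cells and 1.01 (0.835 to 1.22) in A549 cells. Total-count scaling took the BEAS-2B log2 FC to 0.92, under the limit. For PSAT1 the values were 706, 238 and 135 in A549 and 102, 117 and 84.4 in BEAS-2B cells. The A549 control stood far above the other 5 libraries. PSAT1 in A549 cells was left at 0.338 (0.295 to 0.386) of the control at 1 ng/mL and 0.192 (0.159 to 0.230) at 5 ng/mL, and the BEAS-2B ratio at 5 ng/mL was 0.831 (0.597 to 1.15). PSPH was at 0.704 (0.587 to 0.844) and 0.510 (0.328 to 0.780) of the controls at 5 ng/mL, and total-count scaling took the BEAS-2B log2 FC of −0.95 past the limit, to −1.08.

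Glycine and one-carbon units come from serine through SHMT1 in the cytosol and SHMT2 in mitochondria. SHMT1 had 257, 98.9 and 69.0 normalized counts in A549 and 133, 96.8 and 66.8 in BEAS-2B cells. It was lower in each treated library than in its control, and fell to 0.268 (0.204 to 0.349) of the control in A549 cells at 5 ng/mL. The BEAS-2B ratio of 0.503 (0.357 to 0.701) was just short of the FC limit, which total-count scaling passed with a log2 FC of −1.11. The mitochondrial SHMT2 was counted neither higher nor lower, with ratios of 1.18 and 1.47 at 5 ng/mL. The A549 value crossed 1 when the trend over GC content was removed.

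MTHFD2, a mitochondrial folate dehydrogenase gene, had 443, 270 and 189.6 normalized counts in A549 and 441, 279 and 271 in BEAS-2B cells. The controls of the lines were alike, and all 4 treated libraries were lower. It fell in A549 cells at 5 ng/mL, to 0.428 (0.360 to 0.508) of the control, and the BEAS-2B ratio was 0.615 (0.518 to 0.728). Of the other folate members, MTHFD1 (cytosol) had ratios of 0.882 and 0.675 at 5 ng/mL, A549 first. MTHFD1L (mitochondria) had 0.754 and 1.21. ALDH1L2, a mitochondrial formyltetrahydrofolate dehydrogenase gene, had only 29, 22 and 31 counts before scaling in A549 and 4, 15 and 46 in BEAS-2B cells. It stayed under the minimum, and the BEAS-2B ratio of 13.0 (4.74 to 49.7) rests on 4 control counts. SHMT1 and MTHFD2 each share bases at the 3′ end with a gene on the other strand, 196 with SMCR8 and 1324 with SLC4A5, which had 51 to 188 and 25 to 50 counts. ALDH1L2 and MTHFD1 lie the same way against C12orf45 (71 to 308 counts) and ZBTB25 (13 to 58 counts), and SHMT2 against NDUFA4L2 over 33 bases (24 to 106 counts).

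Within proline synthesis, PYCR1 rose in both lines at 5 ng/mL, while ALDH18A1 fell in A549 cells and was lower in both treated BEAS-2B libraries. ALDH18A1 encodes the enzyme that starts proline synthesis from glutamate, and PYCR1 encodes a mitochondrial reductase of the last step. PYCR1 had 498, 658 and 1029 normalized counts in A549 and 505, 1163 and 1302 in BEAS-2B cells. The controls lay side by side, and every treated library was above them. The ratio of PYCR1 at 5 ng/mL was 2.07 (1.85 to 2.31) in A549 and 2.58 (2.31 to 2.88) in BEAS-2B cells, and PYCR1 also rose in BEAS-2B cells at 1 ng/mL. The A549 call ended under total-count scaling, with a log2 FC of 0.84, and when the GC trend was removed, with 0.54.

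ALDH18A1 went the other way. It had 206, 52.9 and 15.4 normalized counts in A549 and 118, 37.1 and 34.0 in BEAS-2B cells. In A549 cells it fell to 0.257 (0.194 to 0.337) of the control at 1 ng/mL and to 0.0748 (0.0426 to 0.123) at 5 ng/mL, the lowest ratio of the 36 members. The BEAS-2B ratios were 0.314 (0.206 to 0.468) and 0.288 (0.181 to 0.442), but its BEAS-2B control was under the ND minimum, so these were not counted as falls.

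Another pair of pathway genes, not members, were read beside them. OAT, which feeds proline synthesis from ornithine, had 163, 51 and 23 counts before scaling in A549 and 67, 17 and 8 in BEAS-2B cells. It fell in A549 cells to 0.110 (0.0681 to 0.172) of the control at 5 ng/mL and was under the minimum in BEAS-2B cells. PYCR3, a cytosolic reductase gene, met the criteria in no comparison with a control, at 2.02 (1.46 to 2.81) and 1.17 (0.678 to 2.02) of the controls at 5 ng/mL.

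ASNS, which makes asparagine from aspartate and glutamine, rose in BEAS-2B cells at both doses. It had 277, 241 and 226 normalized counts in A549 and 63.6, 261 and 186 in BEAS-2B cells. The BEAS-2B control was the low library of the 6, its library at 1 ng/mL lay within the range of the A549 libraries, and that at 5 ng/mL lay between the control and that range. The ratio was 4.11 (3.06 to 5.59) at 1 ng/mL and 2.93 (2.15 to 4.05) at 5 ng/mL in BEAS-2B cells, and 0.816 (0.680 to 0.978) at 5 ng/mL in A549 cells. The median log2 FC of the 12 enzymes at 5 ng/mL was −0.35 in A549 cells, with 1 higher and 4 lower of 11 that reached the minimum, and 0.01 in BEAS-2B cells, with 3 higher and 0 lower of 8. The shares over all entries were 16.1% higher and 17.1% lower, and 7.33% and 11.6%.

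**Figure D2:**
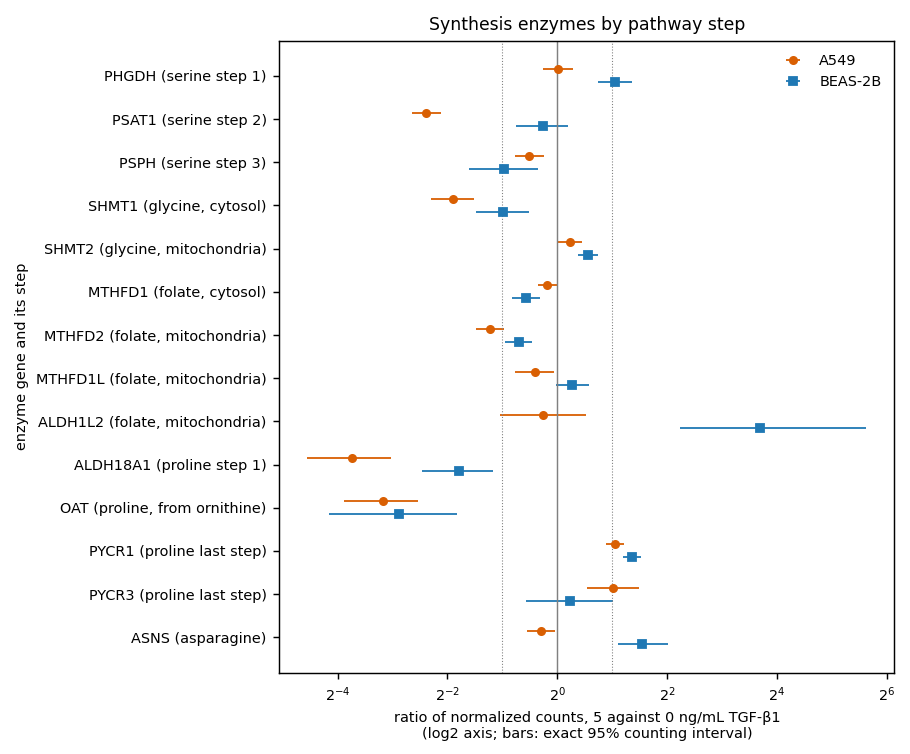
Ratio of normalized counts at 5 against 0 ng/mL TGF-β1 (horizontal axis, log2 scale, bars for the exact 95% counting interval, 1 library per condition) for the 12 member enzymes, OAT and PYCR3 (vertical axis, by pathway step), with dotted lines at the FC limit of 2 in either direction. PYCR1 lies right of 2 in both lines, while ALDH18A1 and OAT lie left of the lower dotted line in both.

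Among the transporters, SLC7A5 rose in BEAS-2B cells at 5 ng/mL, while SLC1A5 and SLC1A4 each fell once at 1 ng/mL. SLC7A5 and SLC3A2 encode the light and heavy chain of the LAT1 exchanger, which imports leucine and other large neutral amino acids. SLC7A5 had 1619, 2884 and 3035 normalized counts in A549 and 678, 977 and 1358 in BEAS-2B cells. Each treated library was above its control. The ratio at 5 ng/mL was 1.88 (1.76 to 1.997) in A549 cells, short of the limit, and 2.002 (1.81 to 2.22) in BEAS-2B cells, at the limit. Total-count scaling took the log2 FC in BEAS-2B cells to 0.87, under the limit, as did removal of the GC trend, to 0.91. The pseudogene entry SLC7A5P2 had 11 to 55 counts. SLC3A2 was not counted as changed and had ratios of 0.586 (0.543 to 0.632) and 0.734 (0.653 to 0.824) at 5 ng/mL.

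SLC1A5 and SLC1A4 encode neutral amino acid exchangers for glutamine and for serine and alanine. SLC1A5 had 1280.2, 636 and 769 normalized counts in A549 and 573, 837 and 457 in BEAS-2B cells. It fell in A549 cells at 1 ng/mL, to 0.497 (0.455 to 0.543) of the control, and in BEAS-2B cells the middle dose was the highest of the line, at 1.46 (1.30 to 1.64). SLC1A4 had 104, 69.4 and 103 normalized counts in A549 and 223, 110.3 and 141 in BEAS-2B cells. It fell in BEAS-2B cells at 1 ng/mL, to 0.494 (0.384 to 0.633) of the control, a call next to the limit that ended under several of the alternatives, DESeq2 size factors among them. SLC7A1, which carries arginine and lysine, had ratios of 1.60 (1.39 to 1.84) in A549 and 1.04 (0.915 to 1.18) in BEAS-2B cells at 5 ng/mL. The 5 transporters had median log2 FC of −0.02 and −0.33 at 5 ng/mL.

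The cytosolic tRNA synthetases charge each tRNA with its amino acid, and 10 of the 11 genes of this group reached the minimum in each line. At 5 ng/mL, 3 rose and 0 fell in BEAS-2B cells, against 7.33% and 11.6% of all entries, and 0 rose and 2 fell in A549 cells, against 16.1% and 17.1%. Total-count scaling ended the BEAS-2B calls of GARS and YARS, with log2 FC of 0.97 and 0.93. GARS, the glycyl-tRNA synthetase gene, had 472, 571 and 683 normalized counts in A549 and 263, 578 and 567 in BEAS-2B cells. The BEAS-2B control was the lowest of the 6 libraries. The BEAS-2B ratio was 2.20 (1.88 to 2.57) at 1 ng/mL and 2.15 (1.84 to 2.53) at 5 ng/mL, and GARS in A549 cells was at 1.45 (1.28 to 1.64). TARS, for threonine, had 2031, 2158 and 3816 normalized counts in the A549 line, with 1386, 2237 and 3158 in BEAS-2B cells. The A549 values were nearly level from 0 to 1 ng/mL and higher at 5 ng/mL, while the BEAS-2B values climbed at each dose. The ratio of TARS at 5 ng/mL was 1.88 (1.78 to 1.99) and 2.28 (2.13 to 2.44). YARS, for tyrosine, had 271, 291 and 280.3 normalized counts in A549 and 164, 289 and 343 in BEAS-2B cells. It rose in BEAS-2B cells at 5 ng/mL, by a ratio of 2.09 (1.70 to 2.57), and was near level in A549 cells, at 1.03 (0.870 to 1.23).

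IARS and MARS, for isoleucine and methionine, were the synthetases that fell in A549 cells. IARS had 496, 157 and 144 normalized counts in A549 and 120.5, 152 and 166 in BEAS-2B cells. As with PSAT1, the A549 control stood alone above the other libraries. IARS fell to 0.291 (0.241 to 0.350) of the A549 control at 5 ng/mL and was at 1.38 (1.06 to 1.80) in BEAS-2B cells. MARS, which overlaps DDIT3, had 667, 431 and 262 normalized counts in the A549 line, with 433, 396 and 275 in BEAS-2B cells. It fell in A549 cells at 5 ng/mL to 0.393 (0.340 to 0.453) of the control, beside 0.634 (0.535 to 0.751) in BEAS-2B cells.

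The other 5 synthetases and XPOT met the criteria in no comparison with a control. SARS (serine) had ratios of 1.66 and 1.83 at 5 ng/mL in the A549 and BEAS-2B lines, and WARS (tryptophan) had 1.36 and 1.26. For AARS (alanine) they were 1.11 and 1.24. NARS (asparagine) and EPRS (glutamate and proline) were under 1 in A549 cells, at 0.771 and 0.759, and over 1 in BEAS-2B cells, at 1.28 and 1.16. XPOT had 8 to 24 counts in every library and was too low to be read.

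**Figure D3:**
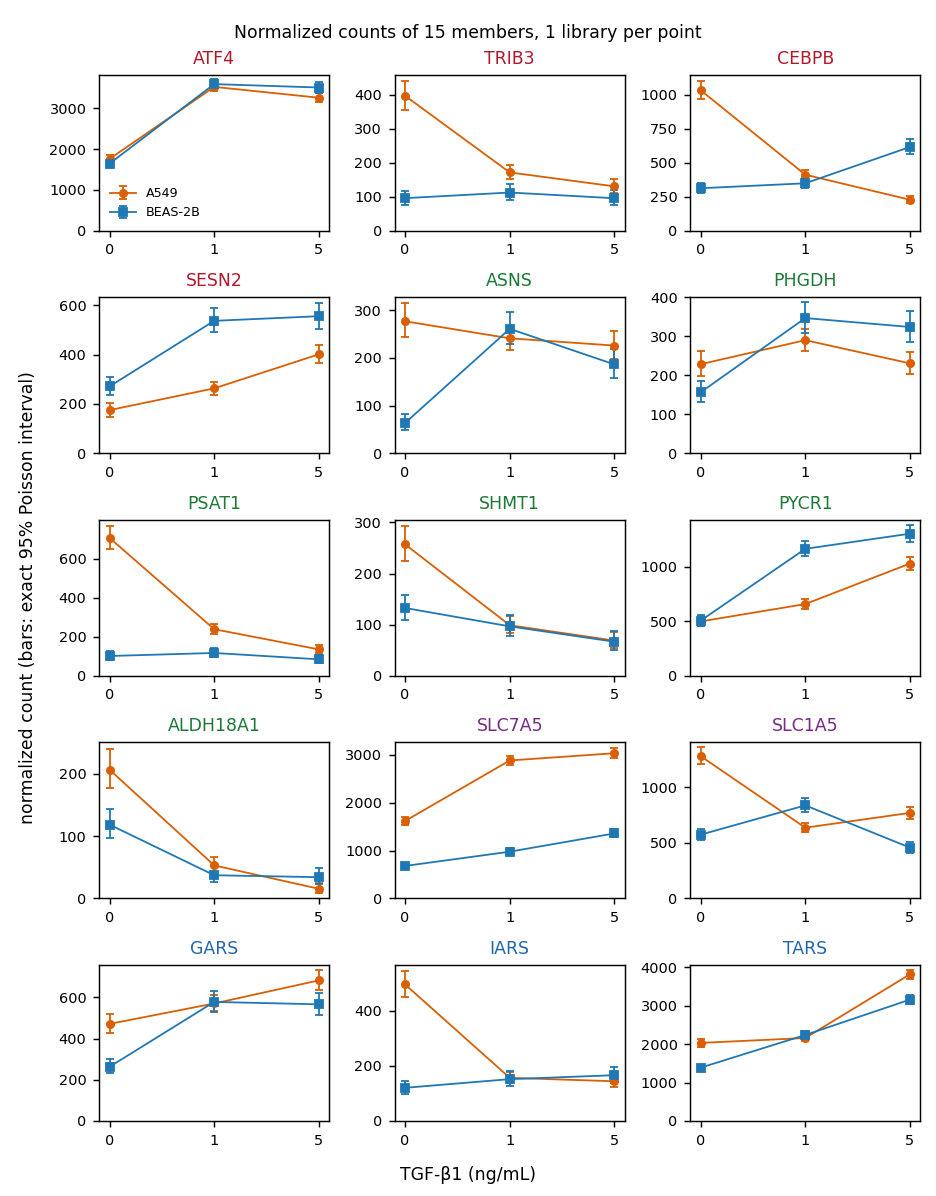
Normalized counts (vertical axis, from 0) of 15 members at 0, 1 and 5 ng/mL TGF-β1 (horizontal axis, evenly spaced) in A549 cells (orange circles) and BEAS-2B cells (blue squares), 1 library per point, with exact 95% Poisson intervals as bars. ATF4 runs nearly alike in the lines, while PSAT1, TRIB3 and IARS start high in A549 and come down towards the BEAS-2B levels. SHMT1 comes down in both lines.

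Set side by side at 5 ng/mL, the A549 ratio lay below the BEAS-2B ratio with intervals that did not overlap for 22 of the 36 members, and above it for 1, SLC7A1. For the other 13 the intervals overlapped. Over the 6304 entries whose mean ND value reached 7, the A549 interval was the lower for 17.6% and the higher for 30.8%. Only 29 of the 36 members pass that ND limit, and the 22 include CHAC1 and ALDH1L2, which had low counts. At 1 ng/mL the A549 interval was the lower for 20 members and the higher for 2, against 18.6% and 30.7% of those entries. The members thus leaned to the BEAS-2B side where the entries at large leaned to the A549 side. These intervals hold no spread between cultures, and the test of the difference given above, over both doses, called 3 members.

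**Figure D4:**
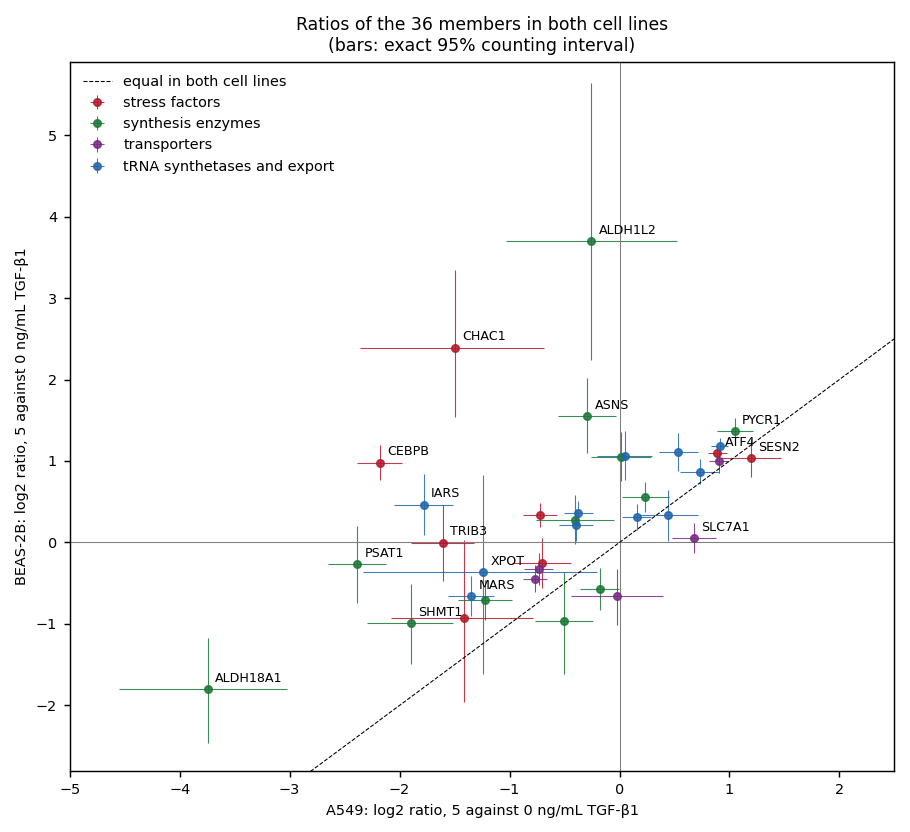
Log2 ratio at 5 against 0 ng/mL TGF-β1 of the 36 members in A549 cells (horizontal axis) and BEAS-2B cells (vertical axis), coloured by role, with exact 95% counting intervals as bars and the line of equal ratios dashed. SLC7A1 is the member whose interval lies on the A549 side of the line, and 22 members have an A549 interval below the BEAS-2B interval.

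The gap between the lines over the members was wider in the controls than at either dose. In the controls, 9 members were higher and 1 was lower in A549 than in BEAS-2B cells (32 reached the minimum, background 18.1% and 18.9%). The higher ones were PSAT1, ASNS, TRIB3, IARS, PSPH, CEBPB, SLC7A5, SLC1A5 and SLC3A2, and the lower one was SLC1A4. Among these the widest gap was that of PSAT1, at 6.95 (5.57 to 8.76), and ASNS followed with 4.36 (3.25 to 5.92). The median log2 ratio of A549 to BEAS-2B over the members was 0.62 in the controls, and −0.02 and −0.09 at 1 and 5 ng/mL, where the entries whose mean ND value reached 7 had −0.11, −0.01 and −0.01. Summed over the 36 members, normalized counts were 21468, 21597 and 22300 in A549 and 14015, 20233 and 21008 in BEAS-2B cells. The A549 sum was 1.53 times the BEAS-2B sum in the controls and 1.07 and 1.06 times at 1 and 5 ng/mL. These gaps use the same control libraries as the ratios above and are not separate evidence. A list of 4 genes high in A549 cells (AKR1B10, AKR1C1, ALDH1A1 and NQO1) went from 7707 CPM (counts scaled to the total of each library) in the control to 2883 and 1608 CPM at 1 and 5 ng/mL in A549 cells, where the summed members stayed nearly level. In BEAS-2B cells it went from 85.8 to 25.2 and 22.6 CPM. The part of this list in the results was not tested.

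From 1 to 5 ng/mL, 0 members met the criteria in A549 cells (28 reached the minimum, background 1.61% higher and 1.79% lower) and 0 in BEAS-2B cells (27 reached it, background 0.492% and 0.412%). Within these limits, some members of both lines still shifted past counting error. In A549 cells, ALDH18A1 at 5 ng/mL was at 0.292 (0.162 to 0.498) of its value at 1 ng/mL, CEBPB at 0.552 (0.475 to 0.641) and TARS at 1.77 (1.69 to 1.85). In BEAS-2B cells, CEBPB was at 1.77 (1.53 to 2.04), SLC1A5 at 0.546 (0.480 to 0.620) and ALDH1L2, on low counts, at 3.43 (1.88 to 6.62). The intervals held 1 for 9 members in A549 and for 19 in BEAS-2B cells. The share over all entries was not worked out for these intervals, so these counts cannot be read as a trait of the members.

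Members with and without the promoter match were set beside each other. At 5 ng/mL the 13 with a match showed −0.38 as their median log2 FC in A549 and 0.31 in BEAS-2B cells, and the 18 without had −0.71 and 0.11. Of the 13 with a match, 0 rose and 2 fell in A549 cells at that dose, and 3 rose and 0 fell in BEAS-2B cells. For the 18 without, the counts were 1 and 6, and 4 and 0. Over all entries the shares were 16.1% and 17.1%, and 7.33% and 11.6%. Of the members with printed promoters, ASNS and GARS rose in BEAS-2B cells at both doses. IARS fell in A549 cells at both doses and SLC1A5 at 1 ng/mL only. Those printed were chosen because they come up in the results, so their directions do not measure the match.

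Further genes of the response, outside the 36, were counted in lists at 5 ng/mL, where 16.1% of all entries rose and 17.1% fell in A549 cells, and 7.33% and 11.6% in BEAS-2B cells. Of 20 other ATF4-linked stress and transport genes, 10 and 8 reached the minimum in the lines. In A549 cells 1 rose and 5 fell, and in BEAS-2B cells 2 rose and 1 fell. GDF15, a stress-induced secreted factor, had 1584, 340.1 and 243 normalized counts in A549 and 153, 548 and 631 in BEAS-2B cells. It fell in A549 cells to 0.154 (0.134 to 0.175) of the control and rose 4.13 (3.41 to 5.03) times in BEAS-2B cells. PCK2, a mitochondrial PEP carboxykinase gene, fell to 0.205 (0.147 to 0.280) in A549 cells, and PPP1R15A, which encodes the eIF2 phosphatase subunit GADD34, fell in both lines, to 0.301 and 0.388. Of 16 other folate and glycine genes, 9 and 7 reached the minimum, 0 rose in either line and 1, SFXN1, a mitochondrial serine carrier gene, fell in A549 cells, to 0.346 (0.277 to 0.428) of the control, a share of 11.1% that is under the background. Of 13 other genes of the cytosolic synthetase system, 13 and 12 reached the minimum and 1 met the criteria in each line, shares of 7.69% and 8.33%. VARS rose in BEAS-2B cells, to 2.39 (1.90 to 3.02) times the control, and EEF1E1 fell in A549 cells, to 0.275 (0.186 to 0.400). VARS has 7 entries under its symbol, and the values are those of the entry with the most counts.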

How the data were processed

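A549 and BEAS-2B transcriptomes at 0, 1 and 5 ng/mL TGF-β1 were used, 1 QuantSeq 3′ library per condition made from 500 ng of total RNA. The authors deposited whole-number read counts per gene symbol without normalization. The submitters' processing notes name Bowtie2, bedtools and hg19, and the paper names ExDEGA. Versions, filters and the strand setting of counting are not given in the sources used here. Counts were scaled with TMM factors (edgeR 4.0.16, R 4.3.3) over all 25737 entries and 6 libraries. Normalized counts were the counts divided by effective library size, times the mean effective size. Ratios carry exact 95% Clopper-Pearson intervals (scipy 1.17.1) and levels exact Poisson intervals. The reads carry no molecular identifiers and so are not independent molecules. The tests were edgeR's quasi-likelihood test (filterByExpr, TMM, Benjamini-Hochberg over all entries tested), with both doses of a line as 1 treated group and line as a term, chosen after the data were seen, with DESeq2 1.42.0 as an alternative. The steps were tested on simulated counts. Members, lists and criteria were chosen with earlier results of these data known. ATF4, each member that met the criteria in a comparison with a control, and at most 3 such genes per further list were described in full, and PYCR3 was named after its values were seen. The 12 alternative settings fixed at the outset and those added later are given at the end. Some genes of the lists are not reported here. Promoters came from RefSeq (GRCh38.p14), and gene overlaps and GC content from GENCODE v29.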

Additional observations from a re-analysis of the deposited data

Results flagged for a closer look

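The treated-against-control difference was unlike in the lines for 4 of the genes described, at an adjusted p under 0.05 in edgeR's test of the difference with both doses as 1 treated group. For ASNS, the asparagine synthetase gene, the log2 FC in A549 minus that in BEAS-2B cells was −2.09 ± 0.48 (SE), and for IARS, the isoleucyl-tRNA synthetase gene, it was −2.15 ± 0.45 (SE). CEBPB, which encodes C/EBPβ, had −2.34 ± 0.51 (SE). Adjusted p was 0.0261, 0.0156 and 0.0198. GDF15, the stress-induced secreted factor gene, had −4.41 ± 0.43 (SE) and adjusted p = 1.23e-05. Both treated libraries of GDF15 lay below the control in A549 cells and above it in BEAS-2B cells, with 1 control library per line. Leaving out BEAS-2B cells at 5 ng/mL left 0 members past this test.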

How the results depend on the processing

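No paired analysis was possible because no replicate numbers link the libraries, and line was a term in each test. The median log2 FC of the members stayed negative in A549 cells (−0.59 to −0.21 at 5 ng/mL, −0.38 to −0.21 at 1 ng/mL) and positive in BEAS-2B cells (0.19 to 0.39 and 0.10 to 0.30) under every scaling, pseudocount, filter and GC alternative. Of 86 log2 FC values of members, 77 kept their sign under these. The 9 that did not were PHGDH, SHMT2, MTHFD1, ALDH1L2, SLC1A4, AARS and YARS in A549 cells and TRIB3 and SLC7A1 in BEAS-2B cells, at 5 ng/mL. Counts of members that met the criteria moved by over 1.5 times as follows. In A549 cells at 1 ng/mL, the 1 higher member became 0 under DESeq2 size factors, total counts, upper quartile factors, TMM within each line, the filter of at least 10 counts, an FC limit of 3 and removal of the GC trend, since ATF4 sat at the limit. In BEAS-2B cells at 1 ng/mL, the 1 lower member became 0 under DESeq2, upper quartile, the filter, a pseudocount of 5, the minimum in both libraries, log2(CPM + 1), an FC limit of 3 and GC removal, and 2 under total counts. Total counts gave 0 higher in A549 cells at 5 ng/mL, and 3 higher and 2 lower in BEAS-2B cells. With log2(CPM + 1) as the ND value, which raises the minimum, A549 cells had 1 higher and 3 lower at 5 ng/mL and 3 lower at 1 ng/mL, BEAS-2B cells 4 and 2 higher, and the controls 5 that differed. With the minimum in both libraries, the controls had 4. An FC limit of 1.5 gave 7 and 4 higher in A549 cells at 5 and 1 ng/mL, 4 lower in BEAS-2B cells at 5 ng/mL, 10 higher and 2 lower at 1 ng/mL, 7 A549 and 2 BEAS-2B members from 1 to 5 ng/mL, and 20 between the controls. A limit of 3 gave 0 higher in A549 cells at 5 ng/mL, 2 lower at 1 ng/mL, 0 and 1 higher in BEAS-2B cells at 5 and 1 ng/mL, and 6 between the controls. Removal of the GC trend, chosen after seeing the data, gave 1 higher in A549 cells at 5 ng/mL, TARS, which was not among the 2 reported. PYCR1 and SESN2 both fell under the limit. A pseudocount of 0.1 and entries summed per symbol moved none of these counts by over 1.5 times. A raw count of 101 to 185 was needed to reach the ND minimum, so members such as CHAC1, ALDH1L2 and XPOT were outside the reach of these depths.

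The edgeR tests of treated against control and their alternatives were chosen after seeing the data. Total counts gave 3 members higher over both lines and 0 higher in A549 cells. Without the expression filter, 5 were lower over both lines, 10 higher in BEAS-2B cells and 6 lower in the difference between the lines. DESeq2 and upper quartile factors gave 0 lower in BEAS-2B cells. Leaving out 1 library at a time gave 1 to 7 higher and 0 to 8 lower over both lines, 0 to 6 higher and 6 to 11 lower in A549 cells, 1 to 12 higher and 0 to 1 lower in BEAS-2B cells, and 0 to 7 lower in the difference. Over both lines, 2 were higher and 8 lower without the BEAS-2B control, and 7 and 0 without the A549 control. In A549 cells, 6 were higher without its 1 ng/mL library, and 0 without either BEAS-2B dose. In BEAS-2B cells, 12 were higher without either A549 dose, 2 without its own 1 ng/mL library and 1 without its 5 ng/mL library, and ALDH18A1 was lost without either of the last pair. The control of a line could not be left out of the tests within lines. The shares of all entries that passed also moved with the library left out, so such moves are not by themselves a trait of the members.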

Other observations

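Among the kinases and factors upstream of ATF4, EIF2AK2 fell in both lines. Of 13 eIF2 kinase and eIF2 genes, 12 and 10 reached the ND minimum in A549 and BEAS-2B cells at 5 ng/mL. In A549 cells 0 rose and 3 fell, where 17.1% of all entries fell, and in BEAS-2B cells 0 rose and 1 fell, a share of 10.0% against 11.6% of all entries. The median log2 FC of the list was −0.18 and −0.22. EIF2AK2, which encodes the double-stranded RNA sensor PKR, had 633, 236 and 221 normalized counts in A549 cells and 354, 122 and 126 in BEAS-2B cells. It fell at both doses in both lines, to 0.350 (0.300 to 0.408) and 0.356 (0.282 to 0.447) of the controls at 5 ng/mL. EIF2B1, a subunit gene of the eIF2 exchange factor, fell in A549 cells to 0.264 (0.190 to 0.362), and EIF2AK1, the heme-regulated kinase gene, to 0.483 (0.448 to 0.519). Phosphorylation of eIF2 was not measured.

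Of 17 mitochondrial tRNA synthetase genes, only 6 and 5 reached the ND minimum in the lines at 5 ng/mL. Of these, 0 rose in either line, 1 fell in A549 cells and 2 fell in BEAS-2B cells, where 16.1% and 7.33% of all entries rose and 17.1% and 11.6% fell. TARS2, the mitochondrial counterpart of TARS, fell in both lines, to 0.190 (0.136 to 0.261) and 0.421 (0.291 to 0.600) of the controls, where the cytosolic TARS had ratios of 1.88 and 2.28. CARS2, for cysteine, fell in BEAS-2B cells to 0.430 (0.327 to 0.562) of the control.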
